A study of Mus musculus with 2 samples.

Results

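The androgen response genes Fkbp5 and Tmprss2 and the prostate secretory genes Pbsn, Tgm4, Msmb and Spink3 were followed in prostaspheres, which are spheres that prostate epithelial cells form in Matrigel. These 6 genes were taken by name from the non-control spots of both arrays, whatever their values, out of 27827 gene names, and they are read by 9 probes. RNA was measured on 2 Agilent whole mouse genome arrays of 1 slide, each of which held 2 RNAs, so that 4 RNAs were compared.

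In the genotype comparison, C57/Bl6J cells labelled SOX9 wild type and treated with tamoxifen (TAM) gave the Cy5 RNA, and ERCre+/+Sox9flox/flox cells treated with TAM gave the Cy3 RNA. In the treatment comparison, both RNAs came from ERCre+/+Sox9flox/flox cells, treated with vehicle for Cy5 and with TAM for Cy3. The Cre is fused to an estrogen receptor domain, is activated by TAM and is driven from the ubiquitous Rosa26 locus, so that floxed Sox9 is removed in any cell type of the culture. All 4 cultures had grown for 6 days with dihydrotestosterone, the most potent natural androgen, before they were given 5 µM TAM or vehicle for 6 days, so no culture without androgen was compared. Every cell of both ERCre+/+Sox9flox/flox RNAs carries the Cre and the floxed alleles, and wild-type cells carry neither. On the genotype array, an effect of the Cre or of the mouse line and an effect of Sox9 loss therefore cannot be told apart. The labels name epithelium of the urogenital sinus (UGS) at 16 days post conception as the source, while the methods describe prostaspheres from adult prostate. How many animals were pooled is not given in the sources used here. The labels do not say whether the RNAs came from separate animals. The p-values therefore measure the spread between these 2 arrays and, in limma, a spread pooled across probes, not a known spread between animals. The arrays hold different comparisons, so the spread between them also takes in any difference between the comparisons. Every log2 ratio is Cy5 over Cy3, that is, Sox9-expressing over Sox9-deleted RNA, with each array as 1 replicate (n = 2). A ratio above 0 means a higher level in Sox9-expressing RNA. The dyes were not swapped on either array, so an effect of dye on a probe and an effect of Sox9 cannot be told apart.

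Androgens such as testosterone and dihydrotestosterone drive the growth and secretion of the prostate by switching on target genes. Luminal cells, which line the prostate ducts, respond to androgen and secrete the proteins of the prostatic fluid, while basal cells beneath them secrete little. Fkbp5 and Tmprss2 are widely used readouts of the androgen response, and Pbsn, Msmb, Tgm4 and Spink3 are abundant secretory products of the mature mouse prostate. Sox9 is a transcription factor that is expressed early in prostate budding.

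The probes of the response gene Fkbp5 and of the secretory genes Pbsn and Msmb are shown because they mark the contrast between detected and undetected members. Each is 60 bases long, is printed 5′ to 3′ and is placed as the array files give it, on mouse build mm9. No annotation of that build was used here, so the exon of a probe is not given. The Fkbp5 probe A_52_P481493 lies at chr17:28574995-28575054 on the minus strand, the Pbsn probe at chrX:75090363-75090422 on the minus strand and the Msmb probe at chr14:32963358-32963417 on the plus strand.
Fkbp5: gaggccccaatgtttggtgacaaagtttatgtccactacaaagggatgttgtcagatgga
Pbsn: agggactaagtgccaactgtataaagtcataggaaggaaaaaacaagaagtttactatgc
Msmb: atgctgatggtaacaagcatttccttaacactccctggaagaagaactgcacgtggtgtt

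The labels were first checked on the targeted gene. Sox9 probe A_52_P577484 had log2 ratios of 2.69 and 2.37 (mean 2.53 ± 0.23 SD, n = 2, limma adjusted p = 0.0652) and probe A_51_P451606 had 1.17 and 1.27 (mean 1.22 ± 0.07 SD, adjusted p = 0.0882). The third probe, A_52_P214630, ran the other way, with -0.997 and -1.22 (limma adjusted p = 0.0946). Its Cy5 signal was not well above background on the genotype array, so the size of the ratio on that array is not measured. On the treatment array both of its signals were well above background (91.7 in Cy5 and 118 in Cy3), so the reversed direction was measured there. The deleted stretch of the gene relative to these probes is not given in the sources used here. Over the whole array, 22731 of 41174 probes were bright enough to test, and 2 of them (0.0088%) passed limma at an adjusted p under 0.05, while 95 (0.418%) differed at least 2-fold the same way on both arrays.

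The cell types behind the RNA were read from marker lists. All 10 basal markers were well above background in all 4 RNAs, and 9 of 10 had higher values on both arrays in Sox9-expressing RNA (median log2 ratio 1.098 and 0.83 on the genotype and treatment arrays, against -0.01 and 0.01 over all tested genes). Of 11 luminal markers, Foxa1 was not well above background in any RNA, Dpp4 was so in 1 RNA, and the 9 that could be tested had medians of -0.01 and -0.20. The summed background-subtracted brightness of the luminal list was 384815 and 357448 in Cy5 and 186069 and 212784 in Cy3. That of the basal list was 571918 and 520504 in Cy5 and 81852 and 79749 in Cy3. These sums, and those of the lists below, were not levelled between dyes or arrays. A Cy5 sum above a Cy3 sum therefore does not show a higher level in Sox9-expressing RNA. In bulk RNA, fewer cells of a type and less RNA per cell cannot be told apart. The part of these marker differences in the values below was not tested.

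The members fell into detected and undetected genes by brightness alone. Fkbp5, Tmprss2, Tgm4 and Spink3 were well above background in all 4 RNAs. Pbsn and Msmb, 2 of the 6, were not well above background in any, against 41.3% of all named genes (11485 of 27827). Negative control spots, which match no mouse transcript, had a median brightness of 63.2 and 58.7 in Cy5 and 23.7 and 23.5 in Cy3 on the genotype and treatment arrays, with 95th percentiles of 67.2, 63.2, 26.5 and 26.1.

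Pbsn encodes probasin, a secreted lipocalin whose promoter is a classical androgen-driven prostate promoter. Its probe had a brightness of 62.1 and 58.1 in Cy5 and of 26.2 and 23.2 in Cy3 on the genotype and treatment arrays. All 4 values lay below the 95th percentile of the negative controls of the same channel. Msmb encodes the secreted beta-microseminoprotein, a major protein of prostatic fluid. Its probe had 62.7 and 61.0 in Cy5 and 23.5 and 24.9 in Cy3, again below the negative controls' 95th percentile in each RNA. Neither probe was tested, and no fold is given for them, since a ratio of values at background carries no level. A transcript below the detection of these probes cannot be told from an absent transcript.

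**Figure D1:**
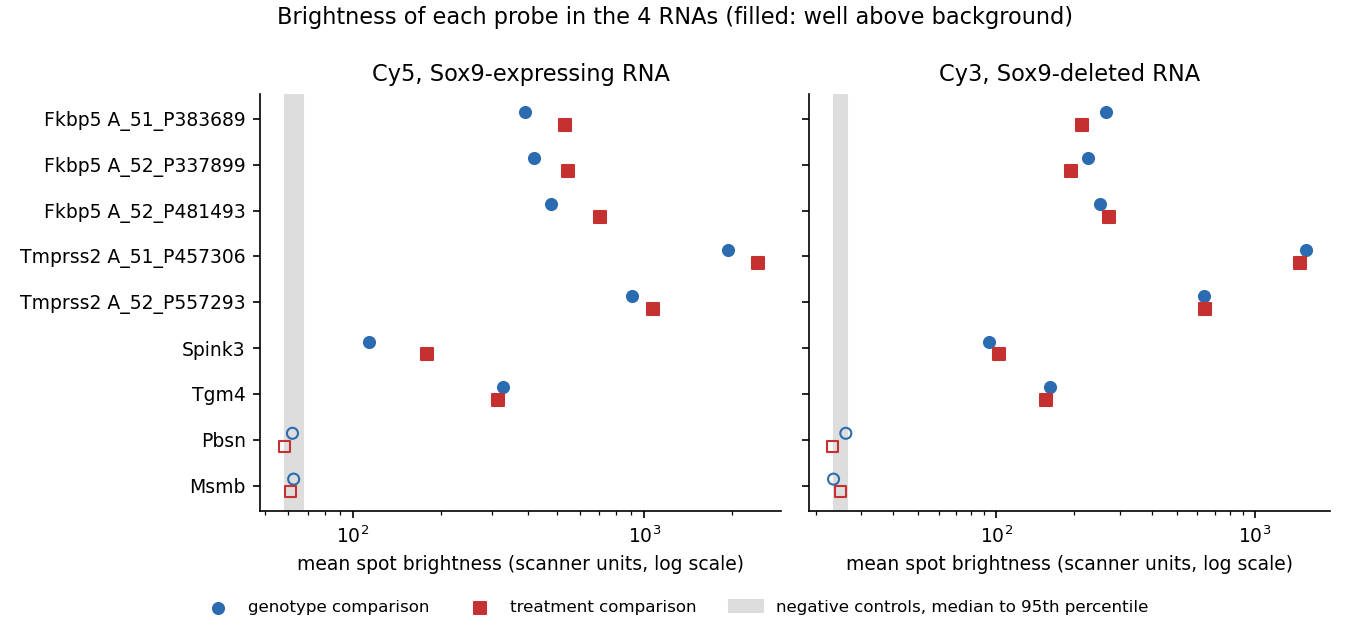
Mean brightness of each probe (scanner units, log axis) in the Cy5 RNA, left, and the Cy3 RNA, right, of the genotype comparison (circles) and the treatment comparison (squares), with filled symbols where the probe was well above background. The gray band runs from the lower median to the higher 95th percentile of the negative control spots of the 2 arrays. Pbsn and Msmb sit at the negative controls in all 4 RNAs, and the other genes sit above them.

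Of the 7 probes of Fkbp5, Tmprss2, Tgm4 and Spink3, 0 passed limma at an adjusted p under 0.05, against 0.0088% of all tested probes. At an unadjusted p under 0.05, 3 of the 7 probes passed, of 2 genes, against 17.5% of all tested probes, and the 3 were lower in Sox9-expressing RNA (8.04% of all tested probes, with 9.45% higher). The methods' t-test gave 0 of 7 at either threshold. None differed 2-fold the same way on both arrays (0 of 7, against 0.418%), and the log2 ratios of these probes on either array ran from -0.66 to 0.45. 4 of the 7 probes were lower on both arrays in Sox9-expressing RNA (32.6% of all tested probes), 0 were higher on both (34.5%), and 3 were lower in the genotype comparison and higher in the treatment comparison (17.9%). The 7 probes are not independent, since 3 belong to Fkbp5 and 2 to Tmprss2. The 4 probes lower on both arrays include that of Tgm4, whose log2 ratios were -0.01 and -0.004.

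**Figure D2:**
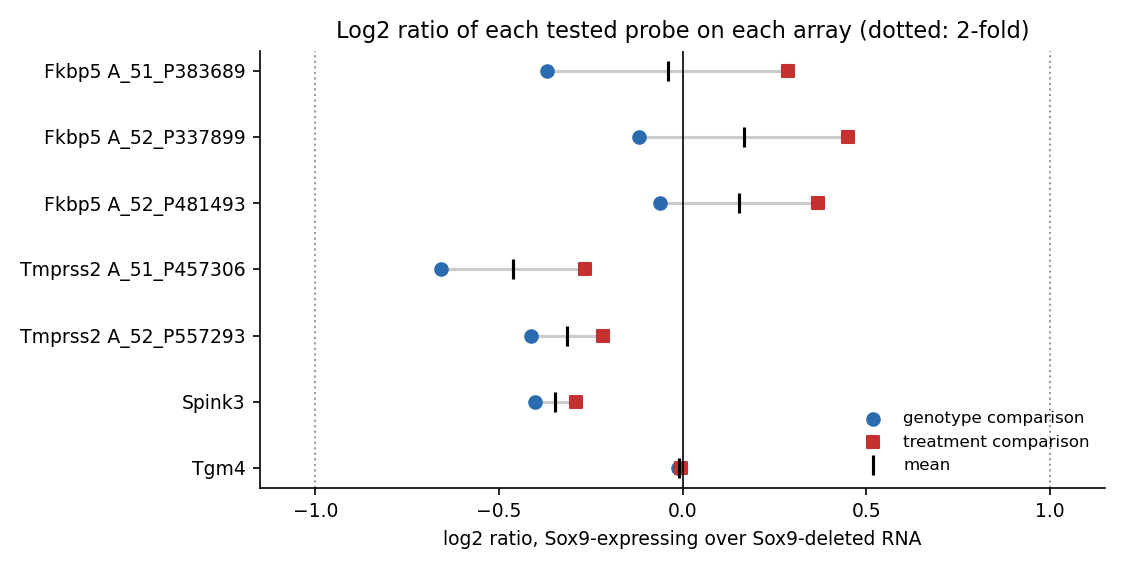
Log2 ratio of Sox9-expressing over Sox9-deleted RNA for each tested probe in the genotype comparison (circles) and the treatment comparison (squares), joined by a gray line, with the mean of both as a black bar. Dotted lines mark 2-fold. Tmprss2 and Spink3 lie below 0 on both, Tgm4 lies at 0, and each Fkbp5 probe has 1 value on each side of 0.

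Tmprss2 encodes a transmembrane serine protease of luminal cells whose transcription is driven by androgen. Its 2 probes lie on chromosome 16, minus strand (mm9), at 97787707-97788637 and 97786692-97786751. The first covers 931 genomic bases with 60 bases of probe, so it spans at least 1 intron and reads spliced RNA. Probe A_51_P457306 had a brightness of 1935 and 2449 in Cy5 and of 1580 and 1492 in Cy3, and probe A_52_P557293 had 909 and 1075 in Cy5 and 634 and 641 in Cy3.

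After loess, which levels the dyes, both probes put Tmprss2 lower on each array in Sox9-expressing RNA. A_51_P457306 gave -0.66 and -0.27, or 1.58-fold and 1.20-fold lower, and a mean of -0.46 ± 0.28 (SD, n = 2). A_52_P557293 gave -0.41 and -0.22, or 1.33-fold and 1.16-fold lower, and a mean of -0.31 ± 0.14 (SD, n = 2). The genotype comparison held the larger difference with each probe. The median SD between replicate spots of other probes of like brightness was 0.04 on either array (0.0405 and 0.0444, 93 probes), which does not cover the spread between cultures. Neither mean passed limma after adjustment (adjusted p = 0.220 and 0.227). The value of the treatment comparison rests on loess: with median centring it was 0.32 and 0.31, under the median of 0.38 that all tested probes then had on that array, and relative to that median it was -0.06 with either probe. Relative to the same median of the genotype array, it was -0.61 and -0.39.

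Fkbp5 encodes FKBP51, a chaperone partner of steroid receptors whose gene is induced by androgen and by glucocorticoid. Its 3 probes lie on chromosome 17, minus strand (mm9). A_52_P481493, at 28574995-28575054, had a brightness of 477 in the Cy5 RNA of wild-type cells with TAM and of 705 in that of ERCre+/+Sox9flox/flox cells with vehicle, against 251 and 274 in the Cy3 RNA of the same arrays. A_52_P337899, at 28537593-28537652, had 418 and 547 in Cy5 and 227 and 195 in Cy3. A_51_P383689, at 28536878-28536937, had 390 and 533 in Cy5 and 266 and 214 in Cy3. With each probe the Cy5 value was higher on the treatment array than on the genotype array, while the Cy3 values moved up with 1 probe and down with the others.

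The log2 ratio of Fkbp5 changed sign between the comparisons. With A_52_P481493 it was -0.06 on the genotype array and 0.37 on the treatment array, -0.12 and 0.45 with A_52_P337899, and -0.37 and 0.29 with A_51_P383689. All 3 probes were thus lower in Sox9-expressing RNA where wild-type cells supplied it and higher where vehicle-treated ERCre+/+Sox9flox/flox cells did, by at most 1.37-fold in either direction. The same signs were found under each processing tried. The means of 0.15 ± 0.30, 0.17 ± 0.40 and -0.04 ± 0.46 (SD, n = 2) had a spread larger than themselves and did not pass limma (adjusted p = 0.588, 0.634 and 0.923). The step from the genotype to the treatment comparison was 0.43, 0.57 and 0.66 on the log2 scale, in the order above. A step at least that large in the same direction was found for 7.28%, 4.73% and 3.79% of all tested probes. With 1 array per comparison the difference between them was not tested.

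Stromal markers were read beside Fkbp5. All 10 were well above background in all 4 RNAs, and 9 of 10 were lower in the genotype and higher in the treatment comparison, against 2792 of 15131 tested genes. Their median log2 ratio was -0.74 and 0.66. Col3a1, a fibrillar collagen of fibroblasts, had -1.63 and 1.13, Col1a2, another, had -0.84 and 1.07, and Acta2, smooth muscle actin, had -0.40 and 0.85. Dcn, a matrix proteoglycan, was the 1 stromal marker lower on both arrays, with -0.77 and -0.14. Des, the muscle intermediate filament desmin, had -0.42 and 0.11, and Myh11, smooth muscle myosin, had -0.12 and 0.43. The summed background-subtracted brightness of the list was 48630 in the Cy5 RNA of wild-type cells with TAM and 135102 in that of ERCre+/+Sox9flox/flox cells with vehicle. In the Cy3 RNAs it was 40921 and 37238, and these sums too were not levelled between dyes or arrays. Of 7 immune markers 5 were not well above background in any RNA, Ptprc among them, and Cd68 and Lyz2, of myeloid cells, had log2 ratios of -0.69 and -0.77, and of -0.90 and -0.15. Their summed brightness was 2260 and 4857 in Cy5 and 2239 and 2859 in Cy3. Of 4 endothelial markers, Pecam1 was not well above background in any RNA, Cdh5 had -0.12 and -0.16, and Kdr had 0.08 and -0.09. Their summed brightness was 228 and 242 in Cy5 and 141 and 172 in Cy3. The part of stromal cells in the Fkbp5 values was not tested.

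**Figure D3:**
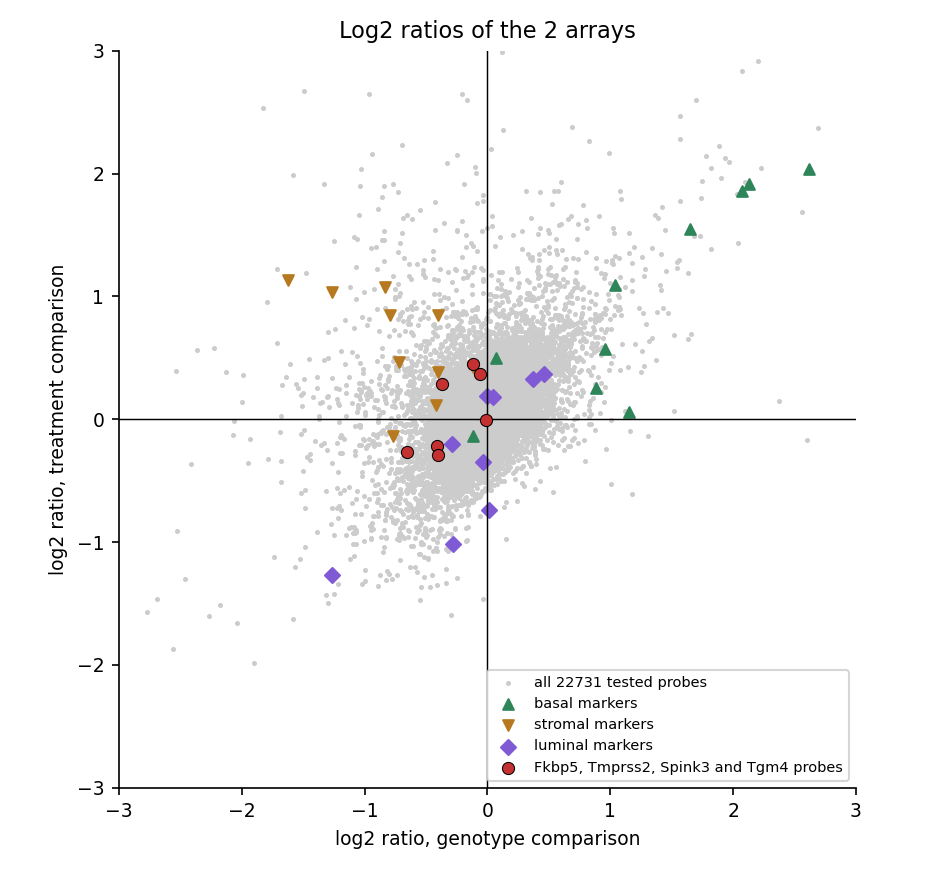
Log2 ratio of Sox9-expressing over Sox9-deleted RNA in the genotype comparison (x axis) against the treatment comparison (y axis) for all 22731 tested probes (gray), of which 11 lie outside the plotted range, with the tested probes of Fkbp5, Tmprss2, Spink3 and Tgm4 (red) and 1 probe per gene of the basal, stromal and luminal marker lists. The 3 Fkbp5 probes share the upper left of the plot with 9 of 10 stromal markers, while Tmprss2 and Spink3 lie in the lower left.

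Spink3 encodes a secreted Kazal-type inhibitor of trypsin-like proteases, found in seminal fluid, and is now named Spink1. It was read by 1 probe of 1 spot, at 43887802-43887858 on chromosome 18 (mm9, minus strand). Its brightness was 114 and 179 in Cy5, 1.80 and 3.06 times the negative control median, and 93.6 and 103 in Cy3, 3.95 and 4.38 times that median. The genotype array gave a log2 ratio of -0.40 and the treatment array one of -0.29, or 1.32-fold and 1.22-fold lower in Sox9-expressing RNA. The 2 arrays lay close together, with a mean of -0.35 ± 0.08 (SD, n = 2), and this was the lowest adjusted p of the members, although it did not pass (limma adjusted p = 0.190). The probe is dim, and the size of its ratio depended on the background correction: the genotype comparison gave -1.08 with plain subtraction and -1.37 with the scanner software's processed signals, and the treatment comparison -0.47 and -0.43. Over all 11 alternatives its adjusted p ran from 0.164 to 0.898.

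Tgm4 encodes the prostate transglutaminase, which cross-links proteins of the copulatory plug. Its probe, at chr9:122976612-122976671 (mm9, plus strand), had a brightness of 327 and 314 in Cy5 and of 162 and 156 in Cy3, so that the 4 RNAs were well above the negative controls. The genotype array gave a log2 ratio of -0.01 and the treatment array one of -0.004, and the mean was -0.008 ± 0.007 (SD, n = 2; adjusted p = 0.960 by limma). Both values lie within the spread between replicate spots. A p-value that misses the threshold does not show equal levels.

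Other genes of steroid signaling were read from lists, each gene by its brightest tested probe. Of 26 genes for steroid receptors, androgen metabolism and receptor partners, 19 were tested. Of these, 7 were higher and 8 lower on both arrays in Sox9-expressing RNA (36.8% and 42.1%, against 33.8% and 33.7% of all tested genes), and 0 passed limma. At an unadjusted p under 0.05, 2 were higher and 3 lower, against 10.4% and 9.07% of all tested genes. Srd5a1, a steroid 5-alpha-reductase that makes dihydrotestosterone from testosterone, had 0.81 and 1.56 (mean 1.18 ± 0.53 SD, adjusted p = 0.155). Srd5a2, the related enzyme, was not well above background in any RNA. Hoxb13, a homeobox factor of the prostate, had 0.37 and 0.33 (mean 0.35 ± 0.03 SD, adjusted p = 0.181), and Esr1, the estrogen receptor alpha gene, had 0.11 and 0.65 (mean 0.38 ± 0.38 SD, adjusted p = 0.330). Esr1 is a receptor through which TAM acts, and TAM was given to both RNAs of the genotype comparison and to the Cy3 RNA alone of the treatment comparison. On the treatment array an effect of TAM itself and an effect of Sox9 loss cannot be told apart. The part of TAM in the values of any gene was not tested. On the other side, Akr1c18, an aldo-keto reductase that inactivates progesterone, had -0.38 and -0.93 (mean -0.66 ± 0.39 SD, adjusted p = 0.198). The receptor coactivator Ncoa3 had -0.20 and -0.26, and the chaperone Hsp90aa1 had -0.07 and -0.43.

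Of 35 androgen response genes, Fkbp5 and Tmprss2 included, 33 were tested. Of these, 13 were higher and 11 lower on both arrays (39.4% and 33.3%, against 33.8% and 33.7% of all tested genes). The median was 0.07, against 0.003 over all tested genes, and 0 passed limma. At an unadjusted p under 0.05, 6 had higher and 5 lower values, against 10.4% and 9.07% of all tested genes. Adamts1, a secreted metalloprotease, was the single gene of this list past the 2-fold rule on both arrays, with 1.03 and 1.52 (mean 1.28 ± 0.34 SD, adjusted p = 0.111). Hpgd, which breaks down prostaglandins, had 0.60 and 1.93, and Steap4, a metalloreductase, had 0.34 and 1.12. Homer2, a scaffold protein, had -0.53 and -0.38 (adjusted p = 0.160), and Stk39, a kinase of ion transport, had -0.40 and -0.26 (adjusted p = 0.199).

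Genes induced by glucocorticoid and other steroids were read as a list that holds Fkbp5, which androgen also induces. Of 12 tested genes of this list, 4 were higher and 5 lower on both arrays, against 33.8% and 33.7% of all tested genes. None passed limma (0 of 12). Another 3, Fkbp5 included, were lower in the genotype and higher in the treatment comparison, against 2792 of 15131 tested genes. At an unadjusted p under 0.05, 3 of the 12 were higher and 4 lower, against 10.4% and 9.07% of all tested genes. The median of the 12 was -0.31 in the genotype and 0.15 in the treatment comparison. The phosphatase gene Dusp1 had -0.71 and -0.74 (mean -0.72 ± 0.02 SD, adjusted p = 0.09999), Errfi1, an inhibitor of EGF receptors, had -0.71 and -0.40, and the clock gene Per1 had -0.43 and -0.33. The metallothionein gene Mt2 had 0.56 and 0.57 (mean 0.57 ± 0.01 SD, adjusted p = 0.119), the stress gene Ddit4 had 0.66 and 0.31, and the kinase gene Sgk1 had 0.40 and 0.20.

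Among the FK506-binding protein genes, the family of Fkbp5, 14 of 15 were tested. Of these, 7 had the sign pattern of Fkbp5, Fkbp5 included, against 2792 of 15131 tested genes. Fkbp7, a chaperone of the endoplasmic reticulum, had -0.79 and 0.21. The family median was -0.12 in the genotype and 0.20 in the treatment comparison. On both arrays, 4 genes were higher and 2 lower, against 33.8% and 33.7% of all tested genes. None passed limma (0 of 14, with 1 in each direction at an unadjusted p under 0.05). Fkbp9 had 0.24 and 0.47, Fkbp3 had 0.22 and 0.19, Fkbp1b had 0.06 and 0.34, Fkbp1a had -0.29 and -0.20, and Fkbpl had -0.17 and -0.11. Fkbp1b has 2 tested probes, and the dimmer one was lower on both arrays.

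The membrane serine proteases related to Tmprss2 were read as a family. Of 18 found, 9 were not well above background in any RNA, against 41.3% of all named genes (11485 of 27827), and 8 were tested, of which 5 had lower and 2 had higher values on each array. Over all tested genes 33.7% were lower on both arrays. The median was -0.31. None passed limma (0 of 8; 0 higher and 4 lower at an unadjusted p under 0.05, against 9.07% of all tested genes lower at that p). Prss22 had -0.68 and -0.51 (mean -0.59 ± 0.13 SD, adjusted p = 0.133), and St14, which encodes the epithelial protease matriptase, had -0.37 and -0.65 (mean -0.51 ± 0.20 SD, adjusted p = 0.176). Tmprss4 had -0.06 and 0.71, and Tmprss13 had 0.11 and 0.25. Tmprss6, counted among the higher, lacked a Cy3 signal well above background in the genotype comparison, so no ratio is given for it.

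Of the 17 prostate secretory genes on the array, Pbsn, Msmb and 7 others were not well above background in any RNA (9 in all, beside the 41.3% of all named genes), and 8 were tested. Of these, 5 were lower and 2 higher on both arrays, against 33.7% and 33.8% of all tested genes. The 5 lower include Tgm4, with -0.01 and -0.004. The median was -0.14, and 0 passed limma. At an unadjusted p under 0.05 in limma, 0 were higher and 1, Spink3, was lower, against 10.4% and 9.07% of all tested genes. Ceacam10 was well above background in Cy3 only and Pigr, which carries antibodies across epithelium, in Cy5 only, so no ratio is given for them. They are counted among the lower and the higher, and the 6 genes measured in both dyes held 4 lower and 1 higher, with a median of -0.15. Sbpl, related to the spermine-binding protein gene, had -0.13 and -0.31, and Azgp1, a secreted zinc-binding glycoprotein that is also an androgen response gene, had -0.24 and -0.09. Acpp, prostatic acid phosphatase, had 0.19 and 0.22 (mean 0.20 ± 0.02 SD, adjusted p = 0.288). Of 6 seminal vesicle genes, 5 were not well above background in any RNA (beside the same 41.3%), and Svs5 had 0.001 and -0.16.

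The families of the secretory members were read next. Of 17 lipocalin genes found, 12 were not well above background in any RNA, Pbsn among them, against 41.3% of all named genes. The 3 tested were Rbp4 (-0.14 and -0.24), Apod (-0.19 and -0.10) and Lcn2 (0.04 and 0.08). Of 8 Kazal inhibitor genes, 4 were tested and 2 were lower on both arrays, against 33.7% of all tested genes. Spink2 had -0.41 and -0.35 (adjusted p = 0.167), close to Spink3, while Spink8 had -1.01 and 0.41 and Spink5 had -0.10 and 0.82. Of 8 transglutaminase genes found, 1 was not well above background in any RNA (beside the 41.3% of all named genes) and 7 were tested. Of these, 4 were lower in the genotype and higher in the treatment comparison (2792 of 15131 over all tested genes). Another 2 were higher and 1, Tgm4, lower on both, against 33.8% and 33.7% of all tested genes. Tgm1 had -0.57 and 0.08, Tgm2 had -0.43 and 0.32, Tgm3 had 0.10 and 0.18, and F13a1 had -0.15 and 0.24. Tgm5, counted among the 2 higher, was well above background in Cy5 only, so no ratio is given for it. None of the genes of these 3 families passed limma (0 called). At an unadjusted p under 0.05 in limma, 2 Kazal genes were lower, against 9.07% of all tested genes.

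The luminal and basal markers frame these values. Krt18, a luminal cytokeratin, had -0.28 and -1.01, and its partner Krt8 had 0.01 and -0.74 by its brightest probe. With these probes the treatment comparison held the larger difference for both, the reverse of Tmprss2. Krt8 has 2 tested probes, and the dimmer one was lower on both arrays. Cldn3, a tight junction protein, was the single luminal marker past the 2-fold rule, with -1.27 and -1.27 (adjusted p = 0.0794). Epcam, an epithelial adhesion protein, had 0.46 and 0.37, and Krt19, a further cytokeratin, had 0.05 and 0.18. Of the basal markers, 5 passed the 2-fold rule. The basal cytokeratins Krt5 and Krt14 had 2.13 and 1.91, and 2.07 and 1.86. Krt15 had 1.04 and 1.09, the basal transcription factor gene Trp63 had 1.65 and 1.55, and the hemidesmosome gene Col17a1 had 2.62 and 2.03. Dst, which encodes a hemidesmosomal plakin, was the 1 basal marker lower on both arrays by its brightest probe, with -0.11 and -0.13. Of its 4 tested probes, 2 were lower and 1 was higher on both arrays.

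The promoter of Pbsn is shown as the reference case of an androgen-driven promoter in a gene that was undetected here in medium with dihydrotestosterone. RefSeq promoters on GRCm38.p6, which run from 250 bases before to 50 bases after a gene start, were held for Fkbp5, Tmprss2, Pbsn and Tgm4. They were searched for the androgen response hexamer AGAACA, read on the other strand as TGTTCT, and for the Sox motif AACAAT, read on the other strand as ATTGTT, and the motifs can overlap. The single exact match was AGAACA in the Pbsn promoter, 95 bases before the gene start. Sites that differ from these motifs by a base were not searched. Whether the marked hexamer is a site through which androgen drives Pbsn was not tested. The hexamer was found in 5139 of 27025 promoters (19%), the Sox motif in 2952 (10.9%) and the full palindrome, with 3 bases between the hexamers, in 1 (0.0037%). The 250 bases before the Pbsn gene start, at chrX:77853501-77853750 (GRCm38.p6, minus strand), are given with the hexamer in capitals.
Pbsn promoter: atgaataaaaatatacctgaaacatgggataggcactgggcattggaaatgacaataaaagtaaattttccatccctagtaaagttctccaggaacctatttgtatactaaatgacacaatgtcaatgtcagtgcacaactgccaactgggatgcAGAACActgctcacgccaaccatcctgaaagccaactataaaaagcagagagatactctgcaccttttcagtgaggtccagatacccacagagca

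**Figure D4:**
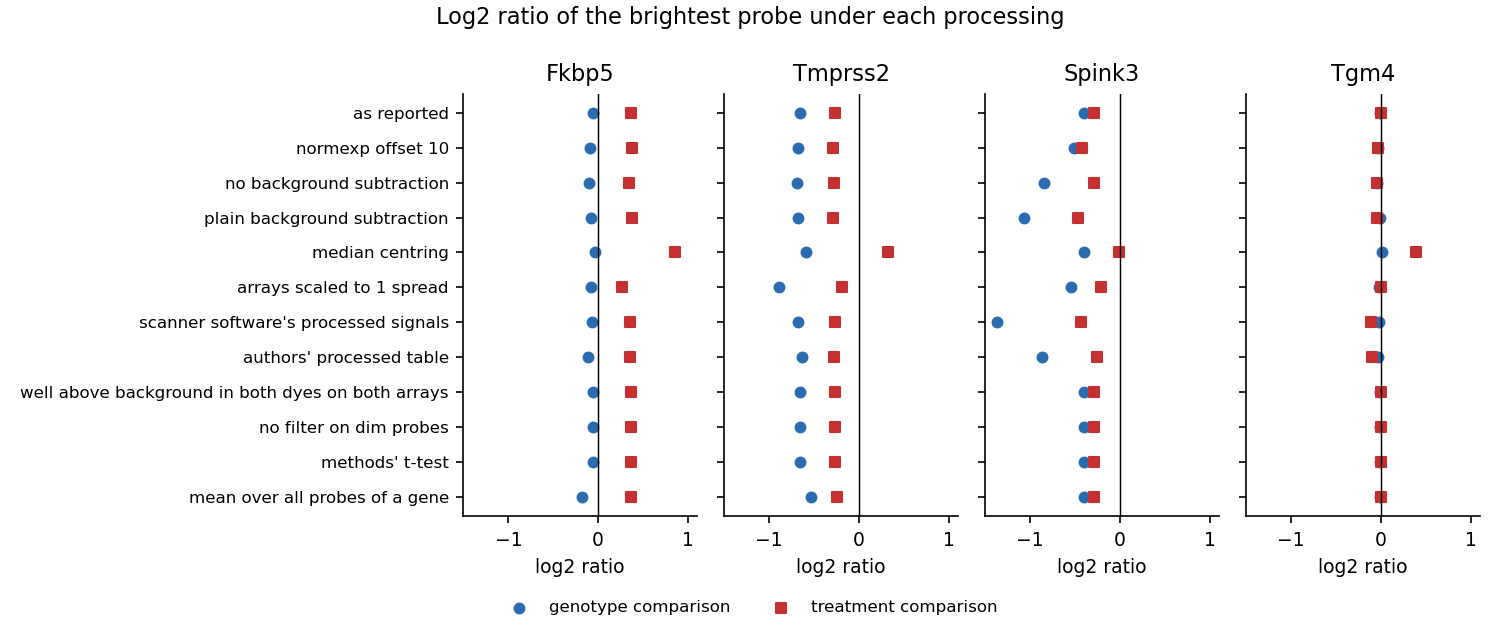
Log2 ratio of Sox9-expressing over Sox9-deleted RNA (x axis) of the brightest probe of Fkbp5, Tmprss2, Spink3 and Tgm4 in the genotype comparison (circles) and the treatment comparison (squares), as reported and under 11 other ways of processing (y axis). Fkbp5 keeps a circle below 0 and a square above 0 in each row, and median centring moves the squares of Tmprss2 and Tgm4 to 0.32 and 0.40.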

How the data were processed

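Gene expression was measured in 4 RNAs on 2 two-colour Agilent arrays. The authors' scanner software, Agilent Feature Extraction, deposited the mean intensity of each spot and of its local background, and processed intensities after background subtraction, detrending and dye normalization. It also deposited the log10 ratio of the processed intensities, which is 0 where both were surrogates, together with its marks for outliers, saturation and signal well above background. The authors also deposited a table of log2 values. Its slope on the log2 ratios made here was 1.27 and 1.08 (correlation 0.958 and 0.983 across 22731 probes, which are not replicates) and its column medians were -0.0099 and -0.0034, so its scale, centring and direction are those of log2 Cy5 over Cy3. The steps behind it are not given in the sources used here, beyond the tool limma that the submitters' processing notes name. Columns of per-sample values left unmapped numbered 0. Arrays were mapped by title, treatment and dye, since the genotype label is Sox9 null for both RNAs of the treatment comparison.

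Mean intensities were corrected with normexp (offset 50), outlier and control spots were given weight 0, loess was run within each array, and spots of a probe were averaged with limma 3.58.1 in R 4.3.3. The offset pulls ratios of dim probes toward 0. A probe was tested if the software marked most of its spots well above background in the Cy5 RNA of each array or in the Cy3 RNA of each. The 22731 such probes were fitted against 0 (lmFit, eBayes, 2-sided), and p-values were adjusted over all of them after Benjamini and Hochberg. With 1 residual degree of freedom, the test leans on the spread pooled across probes (prior SD 0.119 with 2.75 degrees of freedom). A gene was read from its brightest tested probe. The code was tested on simulated data. The number of arrays limits the precision. Saturated spots numbered 0.

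The members, the lists and the tests were chosen with earlier results of these data known. Named were every probe of the 6 genes and of Sox9, and from each list the genes past the 2-fold rule or limma and otherwise the 3 highest and 3 lowest by mean log2 ratio. Some genes of the lists are not reported here. Genes named outside this rule, Foxa1, Dpp4, Srd5a2, Ptprc, Pecam1 and Ceacam10 for their detection and Dst for its direction, were chosen after their values were seen. Probe coordinates are those of the array's mm9 annotation, and sequences are from the array files and from RefSeq. Other steps used Python 3.11.15, pandas 2.3.3, numpy 2.4.6 and matplotlib 3.10.9. Alternatives changed the offset, background correction, normalization, starting values, filter, probe rule, test and arrays.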

Additional observations from a re-analysis of the deposited data

Results flagged for a closer look

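Fkbp5 was lower in Sox9-expressing RNA in the genotype comparison and higher in the treatment comparison with each of its 3 probes, and with the brightest the 2 arrays differed by 0.43 on the log2 scale. Each comparison has 1 array, so the difference was not tested.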

How the results depend on the processing

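The count of members that passed limma, and of members that differed 2-fold on both arrays, was 0 under all 11 alternatives. Read by the brightest probe, Fkbp5, Tmprss2 and Spink3 kept the sign of their mean under all 11, and Tgm4 under 10. The Fkbp5 probe A_51_P383689 did not: its mean was -0.04 as reported and 0.206 with median centring. Tgm4 turned to 0.204 with median centring, which raised the median of all tested probes to 0.38 on the treatment array, and relative to the all-probe median its mean was 0.02. With that centring 521 probes passed limma, 490 of them higher, against 2, with 0 higher, as reported. With the values in the authors' table, 68 passed, 50 of them higher, and with the methods' t-test 0 passed (1936 at an unadjusted p under 0.05). Member probes with an unadjusted p under 0.05 numbered 3 as reported, 2 with plain subtraction, 1 with arrays scaled to 1 spread and with the scanner software's processed signals, and 0 with median centring and the methods' t-test.

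Listed genes other than the members that passed limma numbered 0 as reported, 15 with median centring and 5 with the authors' table. Those past the 2-fold rule numbered 7 as reported, 13 with the scanner software's processed signals, and 12 to 16 when 1 array was left out in turn. Leaving out each array in turn gave a range of -0.062 to 0.37 for Fkbp5, -0.66 to -0.27 for Tmprss2, -0.40 to -0.29 for Spink3 and -0.01 to -0.004 for Tgm4, with no test. Without replicate 2, the treatment array, Fkbp5 was thus reversed, at -0.062. No paired analysis was possible because both arrays belong to a single group, so no 2 groups share replicate numbers. Probes not well above background in any RNA give no ratio at these signals.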
